A study of Mus musculus with 24 samples.

Results

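The genes described here are 40 mouse genes of the lysosome, out of 22165 genes in the deposited counts table. They were found by matching Ensembl identifiers to gene symbols in GENCODE M21, and they comprise 3 transcription factors of the *Tfeb* family, 9 genes of cathepsins and legumain, 11 genes of other hydrolases and their activators, 5 genes of lysosomal membrane proteins and 12 genes of the proton pump (V-ATPase) and its accessory proteins. All 40 passed the filter on low counts and were tested among 11878 genes. RNA was measured in bone marrow-derived macrophages (BMDMs), grown from the marrow of mice aged 8 to 20 weeks in 20 ng/ml M-CSF for 7 days. Cells came from WT C57BL/6N mice or from *Irg1*-/- C57BL/6N mice, which lack the enzyme that makes itaconate, and each genotype was studied under 4 treatments with 3 independent cultures, giving 24 libraries.

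The treatments were no LPS (Unstim.), LPS at 100 ng/ml over 3 h (LPS 3h, non-tolerized), LPS for 24 h with direct harvest (LPS 24h), and LPS for 24 h followed by new medium, 1 h of rest and another 3 h of LPS (LPS 24h->LPS 3h, tolerized). The LPS 3h cells went through the same steps as the tolerized cells with the 24 h dose left out. The new medium and 1 h of rest belong to LPS 3h and tolerized cells and are not given for Unstim. or LPS 24h cells. Comparisons of LPS 3h or tolerized cells with Unstim. or LPS 24h cells therefore cannot tell LPS apart from the change of medium. The comparisons ask how lysosomal genes responded to short, long and repeated LPS, and whether the absence of *Irg1* changed that response. The sample labels do not tie cultures to mice, so p-values measure the spread between cultures.

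Lysosomes degrade proteins, lipids and sugars with acid hydrolases, and the V-ATPase keeps their lumen acidic by moving protons through a membrane sector (V0) that is driven by an ATP-hydrolysing sector (V1). TFEB and its relatives TFE3 and MITF bind a short motif in the promoters of many of these genes and drive their transcription. In macrophages, lysosomes digest engulfed microbes and dead cells, and cathepsins released from damaged lysosomes are known as a trigger of NLRP3.

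The promoters of some of these genes carry the palindrome TCACGTGA, a form of the motif read by TFEB family factors, and 4 of them are shown because *Tfeb* RNA had the largest change of the 40 genes at LPS 3h. Promoter windows from 250 bases before to 50 bases after the start of transcription (RefSeq, GRCm38.p6) were at hand for 33 of the 40 genes. TCACGTGA, which reads the same on both strands, was in the windows of 6 of these 33 genes (18.2%), namely *Ctsa*, *Ctsd*, *Gla*, *Mcoln1*, *Atp6v0e* and *Atp6v1a*, against 2.22% of 9360 tested genes with a window. The shorter core CACGTG, which lies inside it, was in 11 of the 33 (33.3%) against 11.8% of the 9360. Below are the 250 bases before the start of transcription, 5′ to 3′ on the strand of the gene, with CACGTG and any flanking T before it or A after it in capitals. They come from chr7:142387828-142388077 (minus strand, motif beginning 99 bases before the start), chrX:134601006-134601255 (minus strand, 228 bases before), chr8:3500269-3500518 (plus strand, 46 bases before) and chr16:44139260-44139509 (minus strand, 132 bases before). The window of *Ctsc*, chr7:88277835-88278084 on the plus strand, is added because *Ctsc* had the highest fold change at LPS 3h and its window held no CACGTG.
Ctsd: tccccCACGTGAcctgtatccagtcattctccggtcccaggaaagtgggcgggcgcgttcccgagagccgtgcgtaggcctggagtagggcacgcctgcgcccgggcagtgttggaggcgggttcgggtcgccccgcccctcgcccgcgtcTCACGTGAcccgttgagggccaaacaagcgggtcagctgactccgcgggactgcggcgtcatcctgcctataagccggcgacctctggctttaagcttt
Gla: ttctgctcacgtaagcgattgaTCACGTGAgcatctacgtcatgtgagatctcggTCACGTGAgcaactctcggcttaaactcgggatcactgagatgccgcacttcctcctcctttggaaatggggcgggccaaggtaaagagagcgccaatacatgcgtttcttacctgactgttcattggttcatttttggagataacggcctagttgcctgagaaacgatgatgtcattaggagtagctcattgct
Mcoln1: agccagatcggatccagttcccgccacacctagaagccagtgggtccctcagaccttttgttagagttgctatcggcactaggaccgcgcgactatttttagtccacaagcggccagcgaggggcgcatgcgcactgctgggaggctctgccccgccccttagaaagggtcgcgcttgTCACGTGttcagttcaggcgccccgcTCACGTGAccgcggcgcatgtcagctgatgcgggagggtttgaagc
Atp6v1a: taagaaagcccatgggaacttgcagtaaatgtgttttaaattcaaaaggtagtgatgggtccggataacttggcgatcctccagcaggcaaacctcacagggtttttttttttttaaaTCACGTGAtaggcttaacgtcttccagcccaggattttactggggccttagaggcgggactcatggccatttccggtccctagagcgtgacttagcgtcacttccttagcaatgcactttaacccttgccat
Ctsc: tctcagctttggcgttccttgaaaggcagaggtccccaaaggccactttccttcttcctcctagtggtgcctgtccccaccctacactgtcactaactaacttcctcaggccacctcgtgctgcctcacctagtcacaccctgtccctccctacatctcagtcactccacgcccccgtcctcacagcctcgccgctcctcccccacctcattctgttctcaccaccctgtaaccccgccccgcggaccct

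A match of these letters is a description and not a measured binding site. At LPS 3h against Unstim. in WT cells *Tfeb* RNA fell and *Mitf* RNA rose, and the activity of their proteins was not measured here. Among the 6 genes with TCACGTGA, none passed the threshold in this comparison. Their log2 fold changes ran from -0.81 to -0.12 with a median of -0.38. The 27 genes whose windows lacked it had a median of -0.27, with 3 higher and 4 lower, where 15.8% of all genes were higher and 16.3% lower. Between LPS 3h and LPS 24h in WT cells, 2 of the 6 rose (*Mcoln1* and *Atp6v0e*) and none fell, with a median of 0.41, while 2 of the 27 rose and 5 fell, with a median of 0.09, where 16.8% of all genes rose and 15.5% fell. The rise of *Mcoln1* was lost without any of 3 libraries. The difference between genes with and without the motif was not tested.

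Reads on genes numbered 3927378 to 20430359 in a library. Levels are given as CPM, read counts scaled to a common library size after TMM normalization, for the 3 libraries of a group in the order of the culture numbers. *Acod1*, the present symbol of *Irg1*, had at most 26.4 CPM in the 9 *Irg1*-/- libraries treated with LPS and at least 3794 CPM in the 9 WT ones. In unstimulated cells both genotypes had 5.82 to 11.9 CPM, so there it does not check the labels. All 9 macrophage markers had more than 3 counts in every group, with a summed level of 5348 to 10210 CPM. The summed CPM of 6 neutrophil markers was 373 to 622 CPM in unstimulated cells and 63.1 to 223 CPM in the groups that had LPS for 24 h, and that of 4 fibroblast markers was 261 to 345 CPM and 103 to 245 CPM. Of 5 lymphocyte markers the sum was at most 0.779 CPM. In these bulk samples fewer cells of a type and less RNA per cell cannot be told apart, and the part of these other cells in the changes of lysosomal genes was not tested.

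A prefix in the sample labels has 4 values, and what it stands for is not given. All unstimulated libraries have prefix 4, and WT cultures 1, 2 and 3 under LPS have prefixes 1, 2 and 4. *Irg1*-/- cultures 1, 2 and 3 have prefixes 2, 3 and 3 at LPS 3h. They have prefixes 1, 1 and 1 at LPS 24h, and 2, 1 and 1 when tolerized. In *Irg1*-/- cells Unstim. thus shares no prefix with LPS, and LPS 3h shares none with LPS 24h. In these comparisons treatment and prefix cannot be told apart. In WT cells the prefix 4 libraries allow a comparison of LPS with Unstim. within that prefix. Under LPS, prefix 4 holds WT libraries only and the genotypes differ in their mix of prefixes. Genotype differences under LPS, and differences in response, are thus in part confounded with prefix.

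The test was edgeR's quasi-likelihood F-test with Benjamini-Hochberg adjustment over all 11878 genes and a threshold of 0.05, and adjusted p-values given here without a tool come from it. Shares of all genes called are given in brackets beside the count of the 40. In WT cells at LPS 3h against Unstim., 9 of the 40 genes, or 22.5%, passed (32.0% of all genes), 3 higher (15.8%) and 6 lower (16.3%). At LPS 24h against Unstim. 12 genes, or 30.0%, passed (16.2%), 3 higher (9.25%) and 9 lower (6.98%). Between LPS 24h and LPS 3h 10 genes, or 25.0%, passed (32.3%), 4 higher (16.8%) and 6 lower (15.5%). The share of lysosomal genes was thus below that of all genes at LPS 3h and above it at LPS 24h when set against Unstim., and these comparisons share their control samples. With each library left out in turn, the count at LPS 24h ran from 7 to 12. With the label prefix as a term, the count at LPS 3h was higher than 9. Shares of all genes were not set beside these counts, so this order is given for the main fit only.

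In *Irg1*-/- cells the shares lay on the same side of those of all genes as in WT cells. At LPS 3h against Unstim. 8 genes, or 20.0%, passed (35.9%), 3 higher (17.0%) and 5 lower (18.9%). At LPS 24h against Unstim. 10 genes, or 25.0%, passed (13.7%), 2 higher (7.31%) and 8 lower (6.38%). Between LPS 24h and LPS 3h 12 genes, or 30.0%, passed (35.0%), 4 higher (18.2%) and 8 lower (16.9%). In none of these *Irg1*-/- comparisons do the groups share a label prefix.

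At LPS 24h->LPS 3h against LPS 24h, 2 of 40, or 5.0%, passed in WT cells (3.99%), 1 higher (2.46%) and 1 lower (1.53%). None passed with edgeR in *Irg1*-/- cells, where 5.14% of all genes did (3.44% higher and 1.70% lower), 5 of the 40 had an unadjusted p under 0.05 (15.8% of all genes) and DESeq2 called 0 (8.28%). Tolerized against non-tolerized cells gave 10 genes, or 25.0%, in WT (25.5%), 4 higher (12.4%) and 6 lower (13.1%). The same comparison gave 12, or 30.0%, in *Irg1*-/- cells (27.2%), 7 higher (13.1%) and 5 lower (14.1%).

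**Figure D1:**
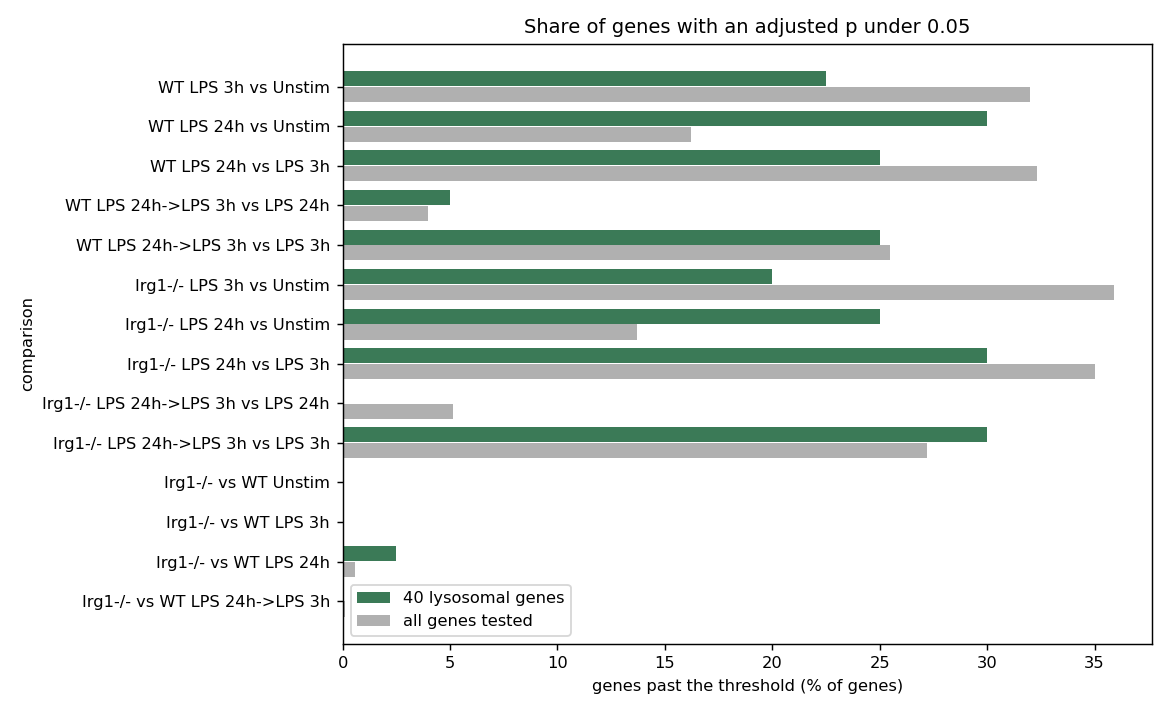
Share of genes past the threshold in each comparison, as a percentage of the 40 lysosomal genes (green) or of all 11878 genes tested (grey). The green bar was longer than the grey one at LPS 24h against Unstim. in both genotypes (30.0% and 25.0%) and shorter at LPS 3h against Unstim. (22.5% and 20.0%).

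Across treatments, 24 of the 40 genes passed in at least 1 of these 10 treatment comparisons, as did 62.6% of all genes, so this share is near the background. The other 16 passed in none. The 16 were *Tfe3*, *Ctsa*, *Ctsb*, *Ctsd*, *Ctsl*, *Gaa*, *Gla*, *Psap*, *Grn*, *Lamp1*, *Cd68*, *Atp6v0c*, *Atp6v1a*, *Atp6v1d*, *Atp6ap1* and *Atp6ap2*. The median log2 fold change of the 40 genes was -0.29 at LPS 3h against Unstim. in WT cells, where that of all genes was -0.18, and -0.36 in *Irg1*-/- cells, where that of all genes was -0.20. At LPS 24h against Unstim. it was -0.09 in WT and -0.29 in *Irg1*-/- cells, where the medians of all genes were 0.00 and 0.00. The summed normalized CPM of the 40 genes was 22212 to 39541 in a library.

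**Figure D2:**
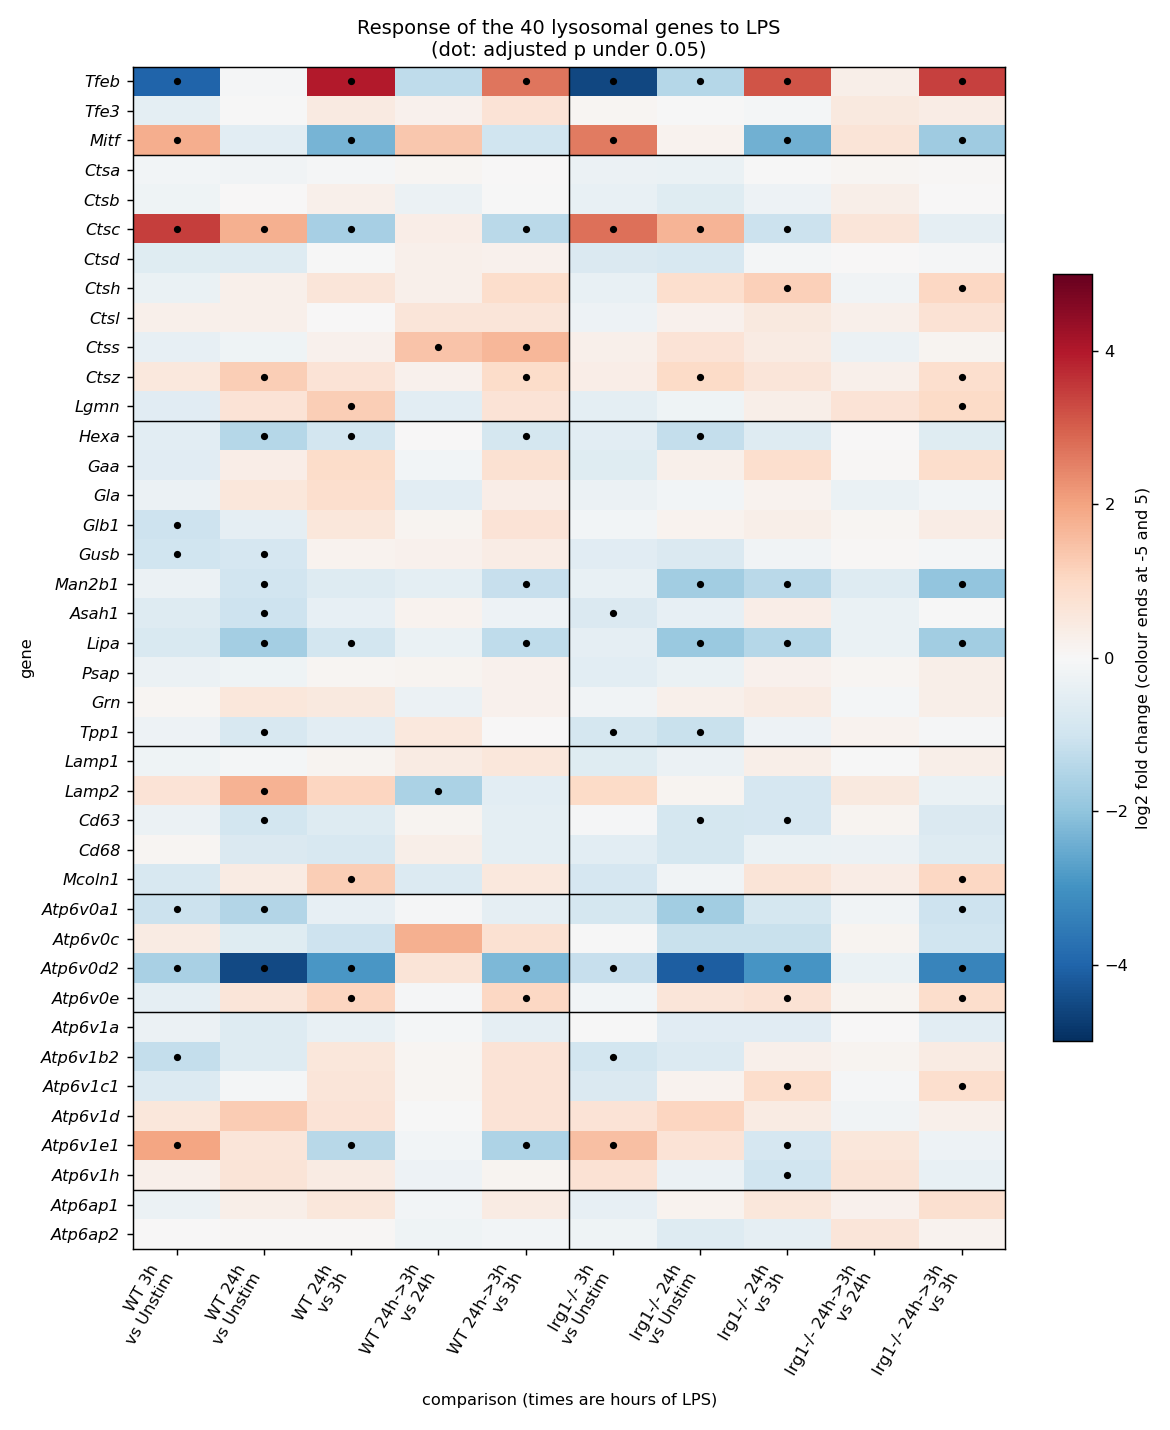
log2 fold change of each of the 40 genes (rows, grouped by role) in 10 treatment comparisons (columns, 5 per genotype), with a dot where the adjusted p is under 0.05 and red for higher, blue for lower. The strongest rows are *Tfeb* (-4.00 in WT and -4.55 in *Irg1*-/- at LPS 3h), *Ctsc* (3.45 and 2.76) and *Atp6v0d2* (-4.50 and -4.10 at LPS 24h), with like colours in both genotypes.

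*Tfeb* (ENSMUSG00000023990.18, mm10 chromosome 17, 47737030 to 47792419, plus strand) encodes the factor best known for driving lysosomal genes. Its RNA was lowest at LPS 3h and higher at LPS 24h. In WT cells it had 21.1, 18.4 and 20.3 CPM unstimulated, 1.28, 0.356 and 2.12 CPM at LPS 3h, 12.4, 14.6 and 30.9 CPM at LPS 24h, and 7.96, 10.1 and 5.81 CPM in tolerized cells. In *Irg1*-/- cells it had 26.8, 21.1 and 30.2 CPM unstimulated, 1.54, 1.27 and 0.352 CPM at LPS 3h, 8.99, 9.81 and 10.4 CPM at LPS 24h, and 7.74, 9.28 and 18.4 CPM in tolerized cells. All 6 LPS 3h libraries lay below all other 18, and these low levels rest on 2 to 16 reads per library, so that their counting error is large. The fall at LPS 3h was 16.0-fold in WT (log2 -4.00 ± 0.52, SE, adjusted p = 2.65e-07) and 23.4-fold in *Irg1*-/- cells (log2 -4.55 ± 0.53, adjusted p = 3.57e-08).

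From LPS 3h to LPS 24h *Tfeb* rose 15.5-fold in WT (log2 3.96 ± 0.52, adjusted p = 6.33e-07) and 8.75-fold in *Irg1*-/- cells (log2 3.13 ± 0.52, adjusted p = 1.73e-05). With a repeated dose *Tfeb* stayed above its LPS 3h level. Tolerized cells had 6.40 times the level of non-tolerized cells in WT (log2 2.68 ± 0.51, adjusted p = 0.000217) and 10.6 times in *Irg1*-/- cells (log2 3.40 ± 0.52, adjusted p = 8.49e-06). Within prefix 4 the log2 difference between LPS 3h and Unstim. in WT cells was -2.74, computed from log2(CPM + 1), with 1 library against 3. At LPS 24h the WT mean was 19.3 CPM against 19.9 CPM unstimulated, a difference that did not pass the threshold. At LPS 24h *Irg1*-/- cells were still below their unstimulated level (log2 -1.42 ± 0.43, adjusted p = 0.0237), a call that was lost without *Irg1*-/- Unstim. culture 1 or 3 or without any of the *Irg1*-/- LPS 24h cultures (adjusted p = 0.052 to 0.098, log2 -1.28 to -1.47) and with the prefix as a term (log2 -0.93, adjusted p = 0.38).

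*Mitf* (ENSMUSG00000035158.15; chromosome 6, 97807052 to 98021349, plus strand), a relative of *Tfeb*, moved the opposite way. Its WT levels were 255, 114 and 122 CPM unstimulated, 468, 769 and 474 CPM at LPS 3h, 199, 66.9 and 71.7 CPM at LPS 24h, and 134, 315 and 411 CPM in tolerized cells. Its *Irg1*-/- levels were 128, 81.2 and 141 CPM unstimulated, 585, 749 and 786 CPM at LPS 3h, 105, 81.1 and 209 CPM at LPS 24h, and 147, 196 and 269 CPM in tolerized cells. All 6 LPS 3h libraries lay above the others. *Mitf* rose 3.49-fold in WT (log2 1.80 ± 0.43, adjusted p = 0.00158) and 6.05-fold in *Irg1*-/- cells (log2 2.60 ± 0.45, adjusted p = 2.61e-05) at LPS 3h, and fell by 2.34 ± 0.44 and 2.42 ± 0.44 on the log2 scale from LPS 3h to LPS 24h (adjusted p = 0.000131 and 7.29e-05). *Tfe3*, the other relative, stayed between 86.4 and 185 CPM in all 24 libraries and passed in none of the 10 treatment comparisons.

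**Figure D3:**
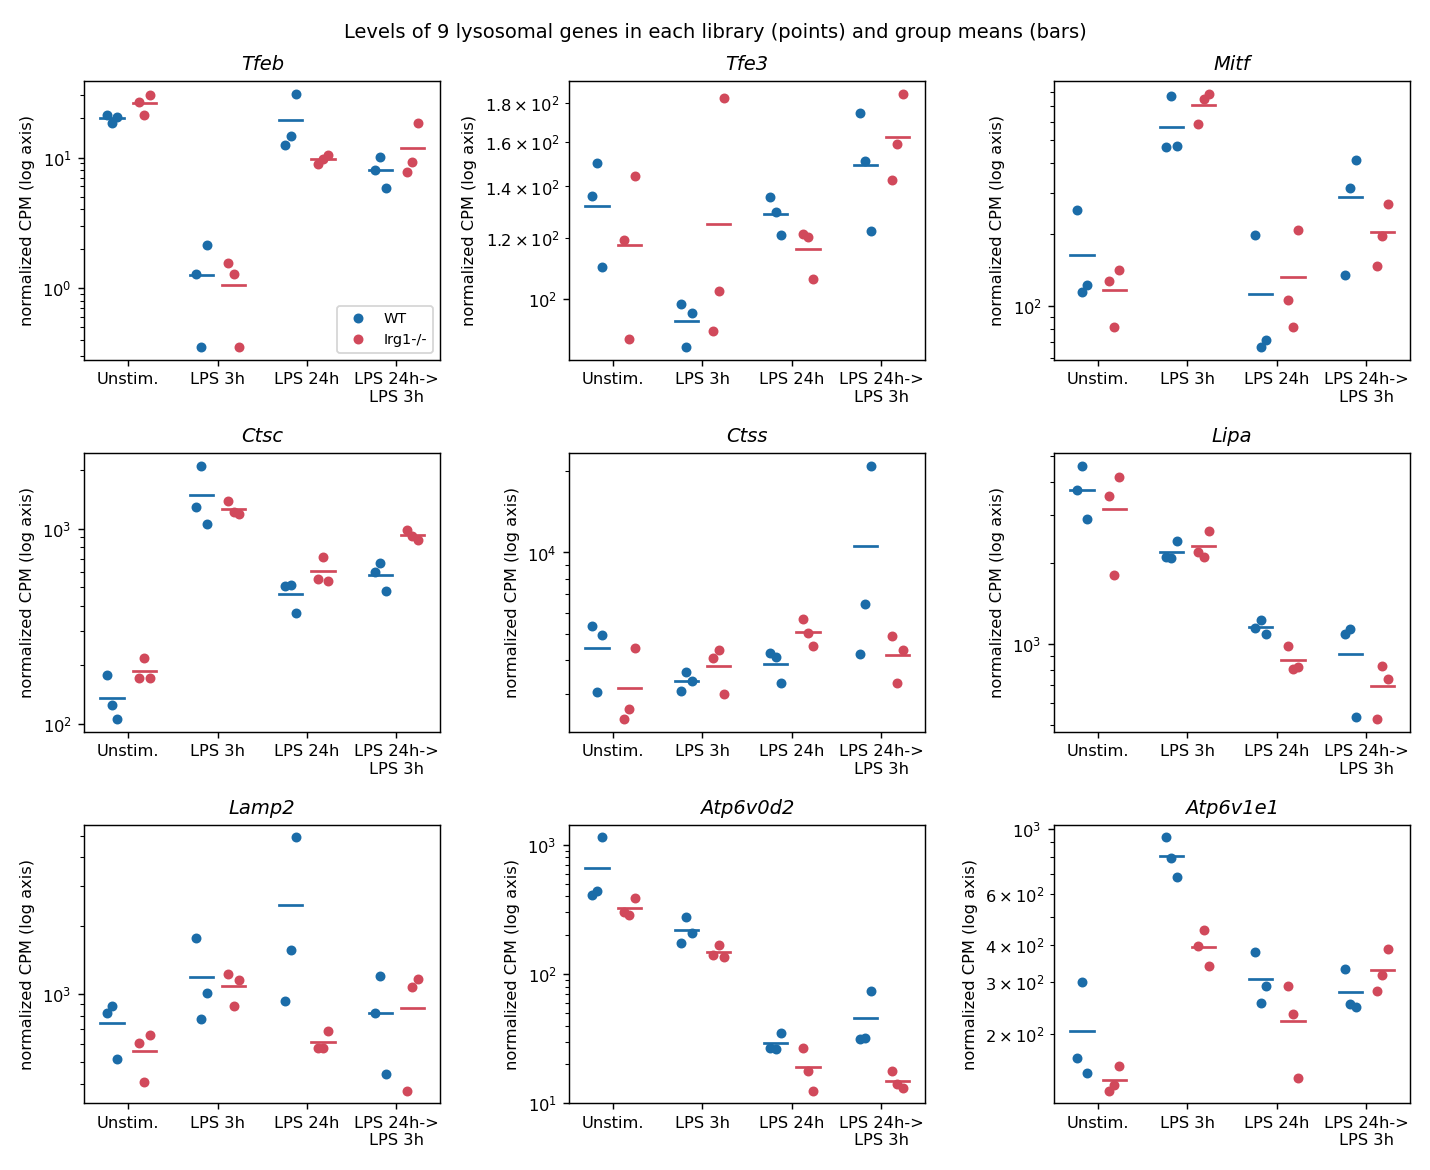
Normalized CPM on a log axis of 9 genes in each library (points; WT blue, *Irg1*-/- red) and the mean of each group (bars). *Tfeb* is lowest and *Mitf* highest at LPS 3h, *Ctsc* is lowest in unstimulated cells, *Atp6v0d2* falls to 12.5 to 73.6 CPM in the groups that had LPS for 24 h, and *Ctss* and *Lamp2* each have 1 WT library far above the rest (20950 and 4909 CPM).

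Among the cathepsins, the lysosomal proteases, *Ctsc* made the largest change. *Ctsc* (ENSMUSG00000030560.16; chromosome 7, 88278085 to 88310888, plus strand) encodes cathepsin C, which activates granule serine proteases. It had 177, 124 and 106 CPM in unstimulated WT cells, 1291, 2103 and 1049 CPM at LPS 3h, 506, 516 and 370.1 CPM at LPS 24h, and 597, 668 and 477 CPM in tolerized cells. *Irg1*-/- cells had 171, 216 and 172 CPM unstimulated, 1380, 1211 and 1185 CPM at LPS 3h, 553, 717 and 539.8 CPM at LPS 24h, and 985, 915 and 869 CPM in tolerized cells. Within each genotype the 3 unstimulated libraries lay below the other 9. The rise at LPS 3h was 10.9-fold in WT (log2 3.45 ± 0.30, adjusted p = 9.89e-11) and 6.76-fold in *Irg1*-/- cells (log2 2.76 ± 0.29, adjusted p = 6.27e-09), and within prefix 4 the WT log2 difference was 2.98.

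*Ctsc* was still 3.42-fold (log2 1.77 ± 0.28, adjusted p = 1.95e-05) and 3.24-fold (log2 1.70 ± 0.28, adjusted p = 4.56e-05) above unstimulated cells at LPS 24h in WT and *Irg1*-/- cells. In WT cells tolerized cultures had less *Ctsc* than non-tolerized ones (log2 -1.35 ± 0.28, adjusted p = 0.000549), and in *Irg1*-/- cells this difference did not pass the threshold. The log2 difference between genotypes in tolerized cells, chosen for mention after its values were seen, was 0.67 ± 0.28 without overlap of the groups (adjusted p = 0.493), and 0.58 and 0.56 within prefixes 1 and 2.

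*Ctsz*, which encodes the carboxypeptidase cathepsin Z, rose 2.33-fold in WT (log2 1.22 ± 0.30, adjusted p = 0.00355) and 1.92-fold in *Irg1*-/- cells (log2 0.94 ± 0.30, adjusted p = 0.0282) at LPS 24h. Both calls were lost with the prefix as a term (log2 0.74 and 0.34, adjusted p = 0.11 and 0.62), and the *Irg1*-/- call also without *Irg1*-/- Unstim. culture 2 or 3 or *Irg1*-/- LPS 24h culture 1 or 2 (log2 0.80 to 0.94). *Lgmn*, which encodes the asparaginyl endopeptidase legumain, rose from LPS 3h to LPS 24h in WT cells (log2 1.22 ± 0.31, adjusted p = 0.0033). *Ctsh* rose over the same interval in *Irg1*-/- cells (log2 1.18 ± 0.36, adjusted p = 0.0109), a call lost without *Irg1*-/- LPS 3h culture 1 or *Irg1*-/- LPS 24h culture 1 (log2 0.99 and 0.97) and with the prefix as a term (adjusted p = 0.053). *Ctsb* and *Ctsd*, the abundant endopeptidases cathepsin B and D, and *Ctsa* and *Ctsl* passed in none of the 10 comparisons. *Ctsb* ran from 3561 to 8630 CPM and *Ctsd* from 1339 to 3874 CPM over the 24 libraries.

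The elastolytic protease *Ctss* (cathepsin S; chromosome 3, 95526786 to 95556403, plus strand) passed in WT cells through 1 library. Its WT levels were 5344, 3053 and 4939 CPM unstimulated, 3081, 3610 and 3351 CPM at LPS 3h, 4241, 4111 and 3291 CPM at LPS 24h, and 4232, 6433 and 20950 CPM in tolerized cells, while the 12 *Irg1*-/- libraries ran from 2429 to 5702 CPM. In tolerized WT cells it was higher than at LPS 24h (log2 1.44 ± 0.38, adjusted p = 0.0266) and than at LPS 3h (log2 1.65 ± 0.39, adjusted p = 0.00176). Without tolerized WT culture 3 these values were 0.47 (adjusted p = 0.54) and 0.61 (adjusted p = 0.16), and the former call was also lost without WT LPS 24h culture 2 or 3 (adjusted p = 0.075 and 0.10). Within prefixes 1, 2 and 4 the log2 difference between tolerized and LPS 24h WT cells was 0.00, 0.65 and 2.67.

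Of the 11 other hydrolases and activators, 6 fell in WT and 4 in *Irg1*-/- cells at 24 h of LPS and none rose, where 6.98% and 6.38% of all genes fell. *Lipa* (ENSMUSG00000024781.15; chromosome 19, 34492318 to 34527474, minus strand), the lysosomal acid lipase that frees cholesterol and fatty acids, had WT levels of 3715, 4597 and 2906 CPM unstimulated, 2096, 2085 and 2398 CPM at LPS 3h, 1143, 1226 and 1085 CPM at LPS 24h, and 1089, 1130 and 533 CPM in tolerized cells. *Irg1*-/- cells had 3530, 1796 and 4180 CPM unstimulated, 2193, 2104 and 2629 CPM at LPS 3h, 983, 808 and 816 CPM at LPS 24h, and 525, 829 and 739 CPM in tolerized cells. The 12 libraries that had LPS for 24 h lay below all 12 others, and so did their summed neutrophil and fibroblast markers, whose part in this was not tested. *Lipa* was 3.25-fold lower at LPS 24h than in unstimulated WT cells (log2 -1.70 ± 0.31, adjusted p = 0.000129) and 3.65-fold lower in *Irg1*-/- cells (log2 -1.87 ± 0.31, adjusted p = 4.61e-05).

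*Hexa*, the alpha subunit of beta-hexosaminidase, which degrades gangliosides, fell from 392, 544 and 699 CPM in unstimulated WT cells to 245, 230.3 and 132 CPM at LPS 24h (log2 -1.43 ± 0.31, adjusted p = 0.000959). In *Irg1*-/- cells it went from 555, 476 and 381 CPM to 221, 242 and 162 CPM and passed as lower, a call lost without *Irg1*-/- LPS 24h culture 3 (adjusted p = 0.054). *Hexa* overlaps *Tmem202*, so reads in the shared stretch are uncertain. *Man2b1*, the lysosomal alpha-mannosidase that trims glycoprotein sugars, fell from 269, 181 and 270.4 CPM to 68.3, 93.7 and 55.7 CPM in *Irg1*-/- cells (log2 -1.73 ± 0.32, adjusted p = 0.000182). *Man2b1* also passed as lower in tolerized than in non-tolerized cells of both genotypes, in *Irg1*-/- cells with a log2 of -1.99 ± 0.32 (adjusted p = 2.17e-05). The hydrolases that fell thus included enzymes of lipids, of gangliosides and of glycoproteins.

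*Asah1* (acid ceramidase), *Gusb* (beta-glucuronidase), *Tpp1* (tripeptidyl peptidase) and *Man2b1* also passed as lower at LPS 24h in WT cells, and *Tpp1* in *Irg1*-/- cells. Each of the 4 calls in WT cells was lost without at least 1 library, that of *Asah1* without WT LPS 24h culture 3, that of *Man2b1* without any of 4 libraries, that of *Gusb* without any of the 6 libraries compared and that of *Tpp1* without any of 5. At LPS 3h *Gusb* and *Glb1* (beta-galactosidase) passed as lower in WT cells, and the call of *Glb1* was lost without WT Unstim. culture 1 or WT LPS 3h culture 3. *Gaa*, *Gla*, *Psap* and *Grn* passed in none of the 10 comparisons.

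Of the 5 membrane protein genes, 1 rose and 1 fell in WT cells at LPS 24h, where 9.25% and 6.98% of all genes did. *Lamp2* (chromosome X, 38401357 to 38456454, minus strand), a major protein of the lysosomal membrane, had 829, 884 and 516 CPM in unstimulated WT cells, 1768, 781 and 1016 CPM at LPS 3h, 931, 1573 and 4909 CPM at LPS 24h, and 821, 1204 and 445 CPM in tolerized cells. *Irg1*-/- cells had 608, 411 and 661 CPM unstimulated, 1231, 887 and 1153 CPM at LPS 3h, 579, 579 and 685 CPM at LPS 24h, and 375, 1073 and 1168 CPM in tolerized cells. The level of 4909 CPM, in WT LPS 24h culture 3, is the highest of the 24 libraries, and 33.7% of that library's reads lay on no feature against 24.4% and 23.5% in the other 2 of its group. With it, *Lamp2* rose at LPS 24h in WT cells (log2 1.73 ± 0.46, adjusted p = 0.0073), and without it the value was 0.70 (adjusted p = 0.31). The call was also lost without WT Unstim. culture 3 (log2 1.52, adjusted p = 0.059).

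*Cd63*, a tetraspanin of late endosomes and lysosomes, passed as lower at LPS 24h in both genotypes, with 598 to 749 CPM unstimulated and 223 to 432 CPM at LPS 24h in WT cells and 431 to 693 CPM and 253 to 367 CPM in *Irg1*-/- cells. Leaving out any of 3 libraries in WT or any of 5 in *Irg1*-/- cells ended these calls. *Mcoln1*, the lysosomal calcium channel TRPML1, rose from LPS 3h to LPS 24h in WT cells (log2 1.21 ± 0.38, adjusted p = 0.0152), a call lost without WT LPS 3h culture 2 or 3 or WT LPS 24h culture 3 (log2 1.03 to 1.06). *Lamp1* and *Cd68* passed in no treatment comparison.

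Among the proton pump genes the largest change was in *Atp6v0d2* (ENSMUSG00000028238.6; chromosome 4, 19876841 to 19922605, minus strand), which encodes the d2 isoform of a V0 subunit, known from osteoclasts and macrophages. It had 413, 443 and 1144 CPM in unstimulated WT cells, 173, 278 and 207 CPM at LPS 3h, 26.8, 26.5 and 34.8 CPM at LPS 24h, and 31.5, 32.0 and 73.6 CPM in tolerized cells. *Irg1*-/- cells had 301, 288 and 389.9 CPM unstimulated, 140.0, 167 and 135 CPM at LPS 3h, 26.9, 17.7 and 12.5 CPM at LPS 24h, and 17.7, 14.1 and 13.1 CPM in tolerized cells. Within each genotype unstimulated, LPS 3h and 24 h levels did not overlap. *Atp6v0d2* was 22.7-fold lower at LPS 24h than unstimulated in WT (log2 -4.50 ± 0.41, adjusted p = 6.44e-10) and 17.2-fold lower in *Irg1*-/- cells (log2 -4.10 ± 0.41, adjusted p = 5.08e-09), with a WT log2 difference of -4.06 within prefix 4.

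At LPS 3h *Atp6v0d2* had fallen by 1.60 ± 0.37 on the log2 scale in WT (adjusted p = 0.000896) and by 1.15 ± 0.36 in *Irg1*-/- cells (adjusted p = 0.0136). The WT value was -0.94 (adjusted p = 0.051) without WT Unstim. culture 3, and the *Irg1*-/- call was lost without *Irg1*-/- Unstim. culture 3 or *Irg1*-/- LPS 3h culture 1 or 3 (log2 -0.96 to -1.06) and with the prefix as a term (log2 -0.85, adjusted p = 0.35). Tolerized cells stayed below non-tolerized cells in WT (log2 -2.26 ± 0.38, adjusted p = 3.41e-05) and *Irg1*-/- (log2 -3.30 ± 0.39, adjusted p = 1.73e-07). Of 6 osteoclast markers, the summed level was 9.80 to 26.6 CPM over all 24 libraries.

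*Atp6v0a1*, another V0 subunit, fell at LPS 24h in WT (log2 -1.46 ± 0.38, adjusted p = 0.00569) and in *Irg1*-/- cells (log2 -1.74 ± 0.38, adjusted p = 0.00124; adjusted p = 0.052 with the prefix as a term). From LPS 3h to LPS 24h in WT cells *Atp6v0e* rose (log2 1.08 ± 0.28, adjusted p = 0.00307), while *Atp6v0d2* passed as lower. The V0 subunits with enough reads thus did not move together. *Atp6v0c* had 2 to 73 reads per library, so its values are uncertain, and it passed in no comparison.

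Of the V1 genes, *Atp6v1e1* (ENSMUSG00000019210.10; chromosome 6, 120794305 to 120822793, minus strand), which encodes a stalk subunit, rose at LPS 3h. It had 164, 299.6 and 147 CPM in unstimulated WT cells, 935, 795 and 684 CPM at LPS 3h, 379.9, 254 and 290.2 CPM at LPS 24h, and 332, 253 and 246 CPM in tolerized cells. The *Irg1*-/- levels were 128, 133 and 155 CPM unstimulated, 397, 449.7 and 341 CPM at LPS 3h, 290.5, 233 and 141 CPM at LPS 24h, and 279, 318 and 390.2 CPM in tolerized cells. In WT cells the 3 LPS 3h libraries lay above all 9 others. The rise was 3.95-fold in WT (log2 1.98 ± 0.31, adjusted p = 4.96e-06) and 2.85-fold in *Irg1*-/- cells (log2 1.51 ± 0.30, adjusted p = 0.000189). It overlaps *Slc25a18* on the opposite strand, and strand use in the counting is not given, so the 2 genes cannot be told apart where they overlap.

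*Atp6v1b2*, the catalytic-sector B2 subunit, fell at LPS 3h from 228, 348 and 292 CPM to 155, 91.0 and 131 CPM in WT cells (log2 -1.20 ± 0.28, adjusted p = 0.0012), and from 274, 266 and 218 CPM to 104, 183 and 112 CPM in *Irg1*-/- cells (log2 -0.93 ± 0.28, adjusted p = 0.0104). The *Irg1*-/- call was lost without *Irg1*-/- LPS 3h culture 1 or 3 (log2 -0.72 and -0.77) and with the prefix as a term (adjusted p = 0.094). *Atp6v1a*, *Atp6v1d* and both accessory genes (*Atp6ap1* and *Atp6ap2*) passed in no treatment comparison.

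Between genotypes, *Lamp2* at LPS 24h was the only gene of the 40 past the threshold in any of the 4 treatments. With edgeR, 0 of 40 genes passed in unstimulated cells, where 0.0421% of all genes did (0.0337% higher, 0.00842% lower), and 0 at LPS 3h, where 0.00842% did, all of it lower. At LPS 24h 1 gene passed as lower, where 0.598% of all genes did (0.101% higher, 0.497% lower), and in tolerized cells 0, where 0.118% did (0.0253% higher, 0.0926% lower). At an unadjusted p under 0.05 there were 1, 1, 7 and 3 genes in that order, where 5.20%, 5.84%, 10.1% and 7.88% of all genes were under it. DESeq2 called 0, 0, 2 and 2, and 0.272%, 0.0674%, 2.70% and 0.948% of the genes it tested. *Lamp2* was 4.02-fold lower in *Irg1*-/- than in WT cells at LPS 24h (log2 -2.01 ± 0.46, adjusted p = 0.0328). Without WT LPS 24h culture 3 the value was -0.995 (adjusted p = 0.61), the call was also lost without *Irg1*-/- LPS 24h culture 1, 2 or 3 (adjusted p = 0.14 to 0.19), and the log2 difference within prefix 1 was -0.60.

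The genotype difference of *Atp6v0d2* did not pass the threshold but was below 0 under each treatment. *Irg1*-/- against WT gave a log2 of -1.03 ± 0.36 unstimulated (adjusted p = 0.57), -0.57 ± 0.36 at LPS 3h (adjusted p = 0.963), -0.63 ± 0.36 at LPS 24h (adjusted p = 0.602) and -1.61 ± 0.37 in tolerized cells (adjusted p = 0.0808). The libraries of the genotypes did not overlap in unstimulated, LPS 3h and tolerized cells. Without WT Unstim. culture 3 the unstimulated value was -0.39, without WT LPS 3h culture 2 the LPS 3h value was -0.36, and without *Irg1*-/- LPS 24h culture 3 the LPS 24h value was -0.38. Without tolerized WT culture 3, which had 73.6 CPM, the tolerized value was -1.05 (adjusted p = 0.43). With all libraries it passed with DESeq2 (log2 -1.63, adjusted p = 0.00616) and with no filter on low counts (adjusted p = 0.00106), and it also passed without tolerized WT culture 1 (log2 -1.81, adjusted p = 0.042). Within prefixes 1 and 2 the difference in tolerized cells was -1.15 and -0.82.

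*Atp6v1e1* at LPS 3h was chosen for mention after its values were seen. Its 3 *Irg1*-/- libraries lay below the 3 WT libraries (log2 -1.02 ± 0.30, adjusted p = 0.40), and the difference was -1.001 within prefix 2. The *Ctss* difference in tolerized cells, likewise chosen, was -1.33 ± 0.38 on the log2 scale (adjusted p = 0.181), and without WT culture 3 it was -0.31 (adjusted p = 0.88). It passed with no filter on low counts (adjusted p = 0.026), with DESeq2 (adjusted p = 0.0496) and without WT culture 1 (log2 -1.70, adjusted p = 0.042). *Tfeb* gave -0.99 ± 0.43 at LPS 24h (adjusted p = 0.416), or -0.44 without WT LPS 24h culture 3, and between -0.16 and 0.57 in the other 3 treatments. A value that misses the threshold does not show that the genotypes act alike.

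**Figure D4:**
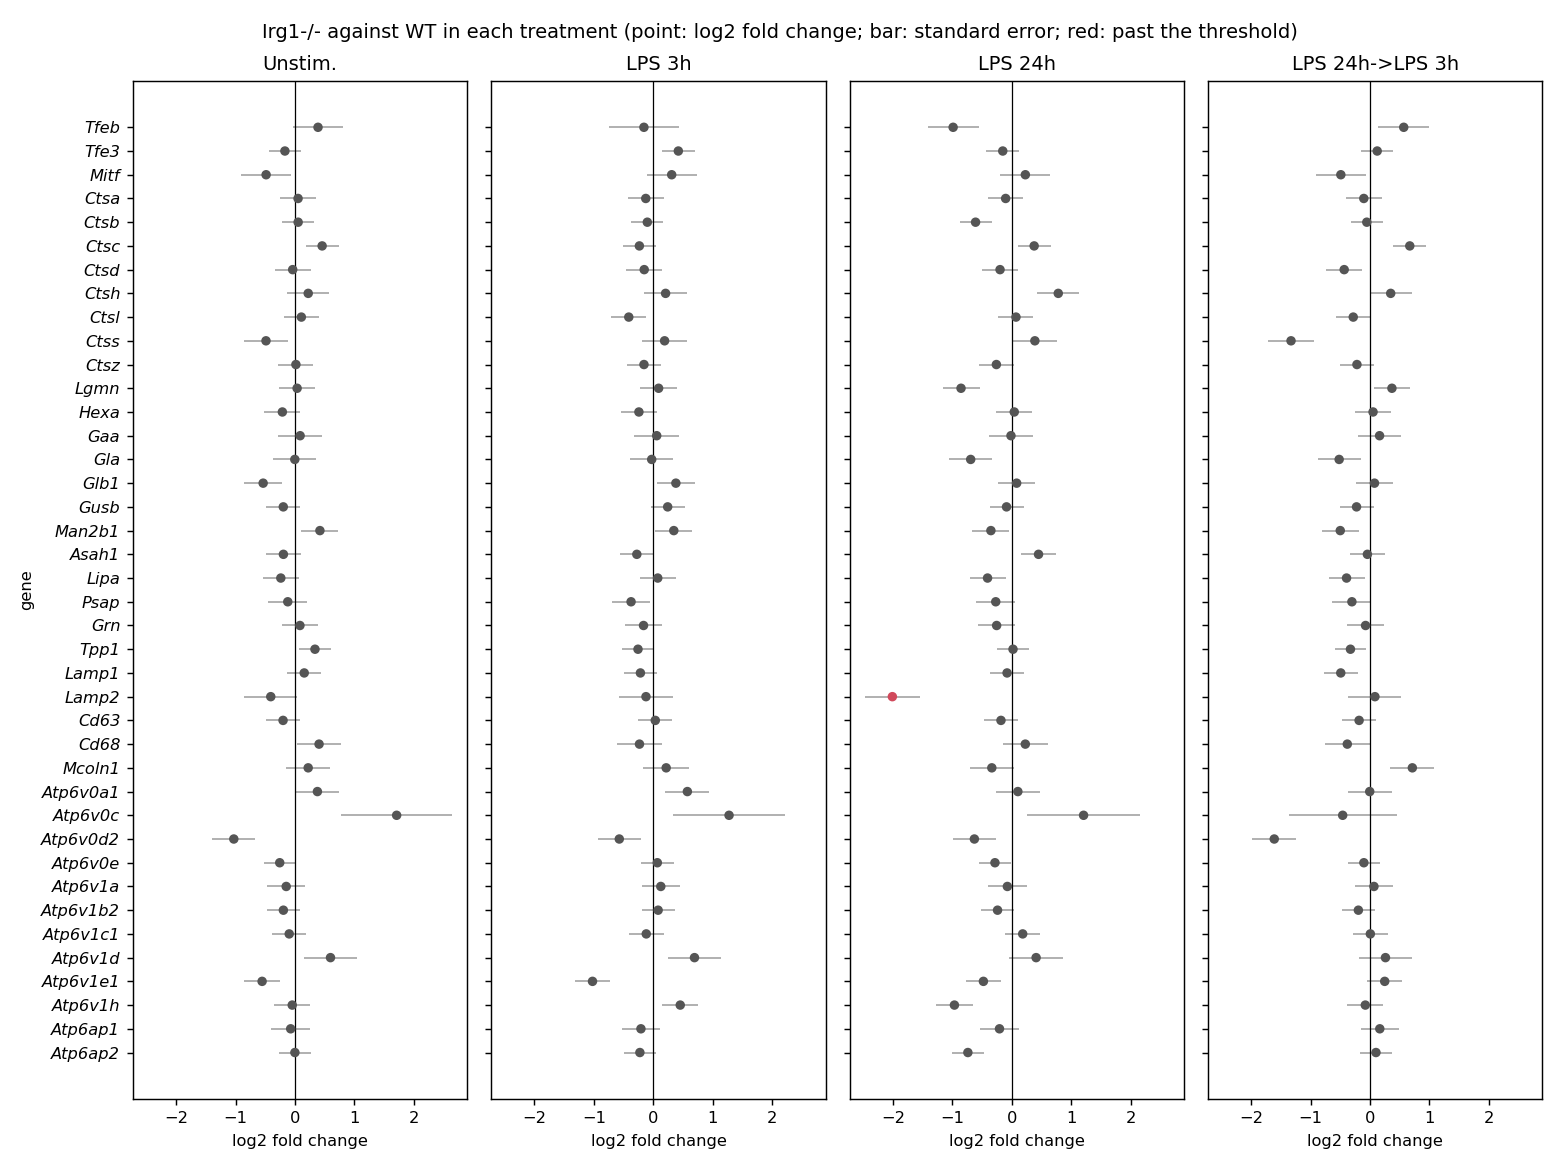
log2 fold change of *Irg1*-/- against WT for each of the 40 genes under each treatment (points) with its standard error (bars), red where the adjusted p is under 0.05. *Lamp2* at LPS 24h is the only red point (-2.01), and *Atp6v0d2* lies below 0 in all 4 panels (-0.57 to -1.61).

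Whether the genotypes differed in their responses was tested by the interaction. For LPS 3h against Unstim., LPS 24h against Unstim. and LPS 24h->LPS 3h against LPS 24h, 0, 0 and 0 of the 40 genes passed with edgeR, where 0.00842%, 0.210% (0.0253% higher, 0.185% lower) and 0.00842% of all genes did, and 0, 0 and 0 with DESeq2, which called 0.0337%, 0.848% and 0.604% of the genes it tested. An unadjusted p under 0.05 was found for 0, 3 and 6 of the 40, where 5.68%, 8.14% and 8.66% of all genes had one. For *Lamp2* and *Ctss*, chosen after their values were seen, the responses to restimulation differed by 2.09 ± 0.64 (adjusted p = 0.253) and -1.72 ± 0.54 (adjusted p = 0.274). Without WT LPS 24h culture 3 the *Lamp2* value was 1.11 (adjusted p = 0.80), and without tolerized WT culture 3 the *Ctss* value was -0.70 (adjusted p = 0.74).

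Other genes of the pathway were counted from fixed lists. Of 32 further lysosomal enzymes tested, 2 rose and 11 fell at LPS 3h in WT cells, and 2 rose and 13 fell in *Irg1*-/- cells. Of all genes, 15.8% rose and 16.3% fell in WT and 17.0% and 18.9% in *Irg1*-/- cells at LPS 3h, and these shares are the background of the other lists too. *Acp5*, the tartrate-resistant acid phosphatase, had the highest log2 fold change (3.91 ± 0.54 in WT, 4.06 ± 0.56 in *Irg1*-/-), and *Sgsh* and *Manba*, enzymes of heparan sulfate and mannoside breakdown, the lowest (-2.66 ± 0.42 and -2.64 ± 0.61 in WT). At LPS 24h against Unstim., 6 of these 32 enzymes rose and 4 fell in WT cells (9.25% and 6.98% of all genes). In *Irg1*-/- cells 3 rose and 3 fell (7.31% and 6.38%). Between LPS 3h and LPS 24h in WT cells 11 rose and 1 fell (16.8% and 15.5%). Of 20 further membrane proteins, 4 rose and 6 fell at LPS 3h in WT cells, where 32.0% of all genes passed, and 3 rose and 7 fell in *Irg1*-/- cells, where 35.9% did, among them *Cln3* (log2 2.24 ± 0.28 in WT) and the cystine transporter gene *Ctns* (log2 -2.24 ± 0.62 in WT).

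Of 7 further V-ATPase subunits with enough reads, *Tcirg1* alone rose at LPS 3h (log2 1.00 ± 0.25 in WT, adjusted p = 0.00236, and 0.85 ± 0.25 in *Irg1*-/-, adjusted p = 0.00814, or 0.11 with the prefix as a term). Of 17 genes of *Tfeb* regulation at the lysosome, 1 rose and 4 fell at LPS 3h in either genotype, which is near or below the share of all genes (32.0% in WT and 35.9% in *Irg1*-/- cells). *Tfec*, a further relative of *Tfeb*, rose from 19.6, 18.1 and 12.7 CPM to 177, 161 and 135 CPM in WT cells (log2 3.23 ± 0.32, adjusted p = 1.34e-09). *Flcn* and *Fnip2*, whose products act together on the lysosomal nutrient signal that keeps TFEB out of the nucleus, fell (log2 -2.65 ± 0.38 and -2.52 ± 0.35 in WT, adjusted p = 1.57e-06 and 8.46e-07). In *Irg1*-/- cells their values were -3.21 ± 0.39 and -2.11 ± 0.35, and that of *Fnip2* was -0.93 (adjusted p = 0.2) with the prefix as a term.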

How the data were processed

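Per the labels, polyadenylated RNA was primed with barcoded oligo-dT for 3′-end sequencing, and the barcoded cDNAs were pooled and amplified by PCR with no molecular identifier described, so intervals and errors from counting cover counting error only. The submitters' processing notes name the aligner STAR and the build mm10, and the authors deposited whole-number counts per gene without normalization. The counting program, annotation and strand setting are not given in the sources used here. The table's 5 summary lines (reads on no feature 22.1% to 33.7%, ambiguous 0.254% to 0.441%, not uniquely aligned 15.1% to 22.5% of a column) entered neither library sizes nor tests.

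Groups came from the sample labels. Counts were normalized by TMM, filtered with filterByExpr and fitted with edgeR 4.0.16 (glmQLFit, glmQLFTest) in R 4.3.3 with 8 groups and all 24 libraries. The standard error is the size of the log2 fold change divided by the square root of F. Reads shared between similar genes, and the 10 lysosomal genes that overlap another gene of the table, are uncertain. The alternatives were size factors and the Wald test of DESeq2 1.42.0, no filter on low counts, the replicate number as a block, the label prefix as a term, a fit of the compared groups only, and each library left out. With the prefix as a term, the share of prefix 4 in *Irg1*-/- LPS against Unstim. is estimated from WT libraries only. Such *Irg1*-/- values assume that the prefix acts alike in both genotypes, and cannot separate LPS from prefix in *Irg1*-/- cells. A fit without the prefix 4 libraries of WT LPS 24h and WT LPS 24h->LPS 3h was added after seeing the data. The fitting code was tested on simulated counts. For WT LPS 24h against Unstim., edgeR called 12 of 64 genes given a log2 change of 1 (18.8%) and 39 of 61 given 2 (63.9%). For *Irg1*-/- against WT at LPS 24h it called 9 of 61 (14.8%) and 41 of 61 (67.2%), so many changes of 2-fold would be missed.

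Culture numbers were not taken to pair the samples, since not every pair was over 0.1, a rule that cannot show pairing to be absent. The correlation of deviations of same-numbered samples of 1 genotype had a median of 0.0114, with 4 of 36 over 0.1. All 4 joined culture 3 libraries (0.152 to 0.230). Across genotypes the median was 0.015 with 8 of 48 over 0.1 (highest 0.199), against 2 of 96 pairs with different numbers, and 6 of these 8 joined culture 3 libraries. All members could be named with levels. Tests are given for *Tfeb*, *Tfe3*, *Mitf*, *Atp6v0d2* and, per comparison, up to 4 members with the highest and 4 with the lowest fold change among those past the threshold, and for up to 2 of either kind per further list. The members and lists were chosen with earlier results of these data known. Sequences are from RefSeq (GRCm38.p6).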

Additional observations from a re-analysis of the deposited data

How the results depend on the processing

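No result turned its direction. Of 134 results for named genes, 77 kept their direction and their side of the threshold under every alternative. The counts of the 40 genes past the threshold moved by more than 1.5 times as follows, and the cause was not tested. With the label prefix as a term, WT LPS 3h against Unstim. gave 14 genes in place of 9, *Irg1*-/- LPS 24h against LPS 3h gave 6 in place of 12, and *Irg1*-/- LPS 24h->LPS 3h against LPS 3h gave 5 in place of 12. For WT LPS 24h->LPS 3h against LPS 24h, 2 genes became 4 with DESeq2's Wald test and 0 with the prefix as a term, with the compared groups only, or without the prefix 4 libraries. For *Irg1*-/- against WT at LPS 24h, 1 gene became 2 with DESeq2 and 0 with the prefix as a term, the compared groups only or without the prefix 4 libraries. For *Irg1*-/- against WT in tolerized cells, 0 genes became 2 with no filter on low counts or with DESeq2, and the difference in the response to restimulation became 2 with no filter.

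With the replicate number as a block, WT LPS 24h->LPS 3h against LPS 24h gave 1 gene and *Irg1*-/- against WT at LPS 24h gave 0. The block moved no other of these counts by more than 1.5 times.

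With each library left out in turn, WT LPS 24h against Unstim. gave 7 to 12 genes (7 without WT Unstim. culture 3 or WT LPS 24h culture 3). WT LPS 24h->LPS 3h against LPS 24h gave 0 to 3 (0 without WT LPS 24h culture 3 or tolerized WT culture 3, 1 without WT LPS 24h culture 2). *Irg1*-/- LPS 24h->LPS 3h against LPS 3h gave 5 to 12 (5 without tolerized culture 1, 7 without tolerized culture 2 or LPS 3h culture 1). *Irg1*-/- against WT gave 0 to 1 at LPS 24h (0 without WT culture 3 or any *Irg1*-/- culture) and 0 to 2 in tolerized cells (2 without WT culture 1). Of the genes past the threshold, 6 of 9 at LPS 3h and 6 of 12 at LPS 24h in WT, and 4 of 8 and 6 of 10 in *Irg1*-/- cells, passed against Unstim. whichever library was left out. DESeq2's size factors moved the median of all genes in tolerized against non-tolerized *Irg1*-/- cells from 0.12 to 0.01. Low counts limit *Tfeb* at LPS 3h and *Atp6v0c* throughout.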

Other observations

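Of 12 autophagy genes, 2 rose and 6 fell at LPS 3h in WT cells, where 15.8% of all genes rose and 16.3% fell. In *Irg1*-/- cells 1 rose and 6 fell, where 17.0% and 18.9% of all genes did. *Sqstm1*, which encodes the cargo receptor p62, rose by a log2 of 1.86 ± 0.33 in WT (adjusted p = 4.95e-05) and 2.57 ± 0.34 in *Irg1*-/- cells (adjusted p = 4.3e-07). *Ulk1*, the kinase that starts autophagy, fell by 3.14 ± 0.58 (adjusted p = 7.05e-05) and by 2.30 ± 0.56 (adjusted p = 0.00171) on the log2 scale.

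Of 9 tested genes of enzyme sorting and cystatins, 3 rose and 1 fell at LPS 3h in either genotype, where 32.0% of all genes passed in WT and 35.9% in *Irg1*-/- cells. *Cst7*, which encodes cystatin F, an inhibitor of cathepsin C, had 0, 0 and 10 reads in unstimulated WT cells and 86, 129 and 86 reads at LPS 3h. In *Irg1*-/- cells it had 8, 0 and 0 reads and then 161, 59 and 57 reads. *Sort1*, a receptor that carries hydrolases to lysosomes, fell (log2 -1.66 ± 0.45 in WT, adjusted p = 0.00458; -1.69 ± 0.46 in *Irg1*-/-, adjusted p = 0.00464), and with the prefix as a term the *Irg1*-/- value was -0.96 (adjusted p = 0.36).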
